A study of Mus musculus with 18 samples.

Results

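The sites described here are 8017 m6A peaks that differed between LPS-treated and vehicle-treated mouse uterus and that shared no base with any peak called between melatonin plus LPS and LPS alone. They were chosen by position. Every peak of the LPS vs Veh tables on chromosomes 1 to 9 was kept if no peak of the Mel+LPS vs LPS tables, up or down, covered even 1 of its bases. Of the 12479 LPS-changed peaks on these chromosomes, 64.2% met this rule, 3701 of the 6220 LPS-up peaks (59.5%, 95% Wilson interval 58.3% to 60.7%) and 4316 of the 6259 LPS-down peaks (69.0%, 67.8% to 70.1%). The 4 deposited tables hold 41084 peaks in all. A site in this set is one at which no melatonin change was called, which is not a measurement that melatonin left it unchanged.

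Female ICR mice of 8 weeks and wild-type genotype were used, all pregnant, and the whole uterus was taken on day 5. They received vehicle (Veh), lipopolysaccharide at 0.5 mg/kg (LPS), or that LPS dose together with 10 mg/kg melatonin (Mel+LPS). There were 3 replicates per treatment with an input and an m6A-immunoprecipitated library, 18 libraries in all. Each deposited peak carries 1 score per comparison, the log10 likelihood ratio of MACS2, which grows with the evidence that the reads of the 2 treatments differ at that peak. No value per library is in the tables, so no replicate error can be given, the read depth behind them is unknown, and no test between mice was possible. Intervals are Wilson intervals unless a Poisson interval is named, and cover counting error only. The tables hold no RNA level either, so a change in methylation, a change in RNA abundance and a change in the number of cells that make the RNA cannot be told apart in bulk tissue, and the tissue label could not be checked by marker expression. Both comparisons use the LPS libraries.

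N6-methyladenosine (m6A) is a methyl mark that a nuclear writer complex around METTL3 and METTL14 places on adenosines of mRNA, mostly within the motif DRACH (first A, G or T, then A or G, then AC, last A, C or T). The marks gather near stop codons, in long internal exons and in 3′UTRs, and reader proteins bind them and change the splicing, translation or decay of the RNA. On day 5 the mouse uterus receives the embryo, progesterone restrains the estrogen-driven growth and secretion of its epithelium and its stroma begins to form the decidua, while LPS from bacterial walls acts through TLR4 and raises inflammatory genes.

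The sequences of several high-scoring sites are shown first because their genes recur in the results. All come from GENCODE transcripts of release 21 (GRCm38), 5′ to 3′ on the RNA strand, as the part of the peak that lies on an exon. Capitals mark every GGAC, a common 4-base core of the motif, in the coding parts. In the 3′UTR windows they mark only 1 motif, a GGAC, or a DRACH where no GGAC was present. Other motifs stay in lower case. A GGAC followed by G is not part of a DRACH. This holds for the marked GGAC of Clca1, Lcn2 and Sele and for the third one of Irx3. Coding parts are given whole and 3′UTR sites as windows of 30 bases. The highest-scoring LPS-down peak of the set was on a coding exon of Clca1 (chr3:145005880-145005922, minus strand), the LPS-down peak of Irx3 held 4 GGAC (chr8:91800097-91800248, minus strand), and that of Lcn2 held 1 (chr2:32385419-32385520, minus strand). The LPS-up coding peaks were those of Gm5150 (chr3:15990670-15990884, minus strand) and Siglece (chr7:43659869-43659983, minus strand).
Clca1 coding exon, LPS-down: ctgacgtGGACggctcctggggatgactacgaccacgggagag
Irx3 coding exon, LPS-down: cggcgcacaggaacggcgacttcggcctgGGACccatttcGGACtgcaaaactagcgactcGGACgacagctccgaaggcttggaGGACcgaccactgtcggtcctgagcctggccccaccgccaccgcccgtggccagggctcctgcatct
Lcn2 coding exon, LPS-down: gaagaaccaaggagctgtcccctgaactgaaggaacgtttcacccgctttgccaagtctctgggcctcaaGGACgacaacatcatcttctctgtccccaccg
Gm5150 coding exon, LPS-up: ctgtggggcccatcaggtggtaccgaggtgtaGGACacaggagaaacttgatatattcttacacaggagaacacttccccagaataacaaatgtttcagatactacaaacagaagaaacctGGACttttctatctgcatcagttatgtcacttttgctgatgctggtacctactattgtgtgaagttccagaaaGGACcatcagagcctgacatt
Siglece coding exon, LPS-up: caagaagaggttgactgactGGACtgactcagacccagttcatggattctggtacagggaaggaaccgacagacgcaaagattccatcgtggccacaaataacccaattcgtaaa

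Windows in the 3′UTR are shown for the LPS-up peaks of Slc13a3 (chr2:165405382-165405411, minus strand), Sele (chr1:164056984-164057013, plus strand) and Slc11a1 (chr1:74385588-74385617, plus strand). The LPS-down windows are those of Sprr1a (chr3:92484062-92484091, minus strand), Tmprss11d (chr5:86303506-86303535, minus strand), Ptgs2 (chr1:150107710-150107739, plus strand), Prap1 (chr7:140097044-140097073, plus strand), Hsd17b2 (chr8:117758919-117758948, plus strand) and Bmp2 (chr2:133562431-133562460, plus strand).
Slc13a3, LPS-up: gggggacaaggacGGACatgcacagagaga
Sele, LPS-up: aaagagagtgaatGGACgggggagagcgcg
Slc11a1, LPS-up: cggtttccagtttGGACaagtgctttacct
Sprr1a, LPS-down: ctcctgagcctctTAACAttgcccaaagtc
Tmprss11d, LPS-down: tcaactgcaaaggAGACTggaaatgcccct
Ptgs2, LPS-down: agactgacattttAGACAttttgaaggccc
Prap1, LPS-down: agggaccagaggaGGACcttgaccacctcg
Hsd17b2, LPS-down: ccgagagctttaaGGACagtgcactagaag
Bmp2, LPS-down: caagaacaaagcaGGACcagtgggaataat

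The strongest LPS-down sites of the set lay on Clca1. Clca1, which encodes a secreted regulator of chloride conductance in mucous epithelia, had 11 LPS-down peaks, all of them in the set, with scores from 25.7 to 221.6 and a median of 103.6. Clca1 had no LPS-up peak and no peak in either Mel+LPS vs LPS table. Its transcript runs from chr3:145003817 to 145032776 on the minus strand over 14 exons. The 3 highest Clca1 scores, 206.9, 221.6 and 217.9, belonged to the 3 peaks nearest its 3′ end, 25058, 26961 and 28064 bases from the transcript start. The 3 Clca1 peaks nearest the start had lower scores of 65.4, 53.1 and 25.7. Of the 11 peaks, 9 shared bases with an exon of the Clca1 transcript, from 2 to 490 bases, and the others lay in introns.

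**Figure D1:**
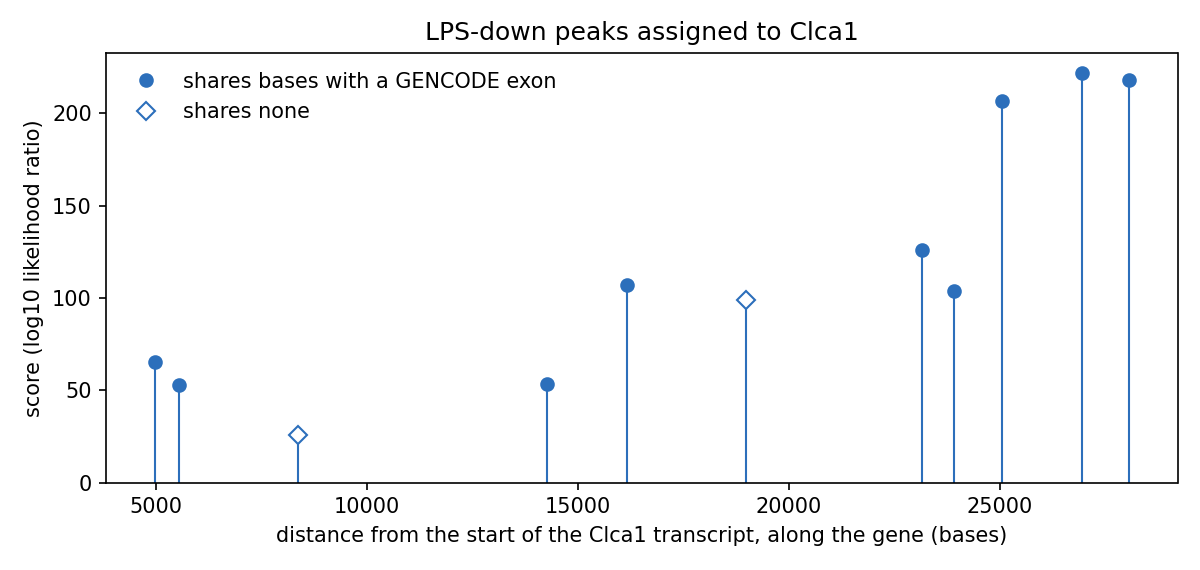
Scores of the 11 LPS-down peaks assigned to Clca1 against their distance from the transcript start, along the gene in bases. Filled points share bases with a GENCODE exon and open points share none. The 3 peaks nearest the 3′ end scored between 206.9 and 221.6, and the other peaks between 25.7 and 125.8.

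The Sprr genes, whose small proline-rich proteins build the cornified envelope and respond to estrogen in the uterus, were the next group. The 3′UTR peak of Sprr2b scored 174.4 and that of Sprr1a 58.0, and neither gene had a Mel+LPS vs LPS peak. Sprr2a2 scored 30.5, Sprr2d 17.2, Sprr2a3 15.3 and Sprr2f 2.09, each LPS-down. Sprr2f also had an LPS-down peak that overlapped a Mel+LPS-down peak and so is outside the set, and 1 Mel+LPS-down peak was assigned to Sprr2a2 in sequence next to the gene. No LPS-up peak was found on these Sprr genes. The Sprr2 copies are near-identical, so how reads were divided among them is uncertain.

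Other epithelial products had LPS-down sites of the same kind. Prap1, a secreted proline-rich acidic protein of the uterine and gut epithelium, had 5 LPS-down peaks with scores from 15.1 to 26.8, and no peak between Mel+LPS and LPS. Tmprss11d, a membrane-bound serine protease of surface epithelia, had LPS-down peaks of 51.9 and 8.27. The first of these lay in its 3′UTR but was assigned by the authors to the neighboring Tmprss11c. Hsd17b2, which oxidizes estradiol to the weaker estrone, had 4 LPS-down peaks (10.7 to 20.2) and none between Mel+LPS and LPS. Single LPS-down sites without a melatonin peak on the gene were those of Ptgs2 (21.3), the inducible cyclooxygenase of prostaglandin synthesis, and Igfbp2 (22.0), which binds insulin-like growth factors.

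Other genes had melatonin peaks as well, over neighboring LPS-down peaks that are left out or elsewhere on the gene. Lcn2, the siderophore-binding lipocalin, had 4 LPS-down peaks. Its 3 sites in the set scored 29.9, 19.9 and 16.3, and the one left out scored 7.42 beside a Mel+LPS-down score of 2.72. Ltf, the iron-binding lactotransferrin of estrogen-exposed epithelium, had 7 LPS-down peaks on its exons, all in the set, from 1.95 to 12.2. Ltf also had 4 Mel+LPS-down peaks elsewhere on its exons, from 1.68 to 3.01. Bmp2, a ligand that the stroma needs to decidualize, had LPS-down sites of 11.9 and 11.6 in the set. Its LPS-down peaks left out scored 25.3 and 19.98, and the Mel+LPS-up peaks over them scored 5.65 and 6.23. Il11, a cytokine of decidualization, had a 3′UTR site of 12.3 in the set, while its neighbor scored 21.9 in LPS vs Veh and 27.3 upward in Mel+LPS vs LPS. Ass1, the argininosuccinate synthase of arginine synthesis, had 7 LPS-down peaks on exons. Of these, 5 were in the set, with scores from 7.07 to 34.1. The Mel+LPS vs LPS peak nearest to the Ass1 site of 34.1 was a Mel+LPS-up peak, 604 bases away, with a score of 11.1.

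Other high LPS-down scores were spread over unrelated genes. They were 35.5 on an exon of Uox in a peak assigned to Dnase2b, 34.4 in the 5′UTR of Zfp810 and 30.0 in the 3′UTR of the adhesion molecule gene Ncam1, which was assigned to Gm11149. Rnf186 had 25.9 in its 3′UTR and Irx3, a homeobox transcription factor gene, 18.4.

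The strongest LPS-up sites of the set lay on genes of various kinds. Slc13a3, which encodes a sodium-dicarboxylate cotransporter, had the highest LPS-up score of the set, 62.8, in its 3′UTR, in a peak assigned to Ocstamp. A second LPS-up peak of Slc13a3 scored 33.4 and is left out because a Mel+LPS-up peak of 1.25 overlapped it. Saa3, an acute-phase serum amyloid, had 4 LPS-up peaks. The 3 in the set scored 57.7, 50.3 and 16.1, and the 50.3 peak was assigned to the neighboring Saal1. The Saa3 peak left out had the highest score of the gene, 94.6, and the Mel+LPS-down peak that overlapped it scored 1.93.

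Sele and Selp, the endothelial selectins that slow leukocytes on the vessel wall, had 5 LPS-up sites in the set. Sele had sites of 20.1, 6.55 and 3.01. Selp had 3′UTR sites of 13.7 and 6.27 that were assigned to the neighboring F5. The Sele site of 6.55 ended at the base before a Mel+LPS-up peak of 5.08. Selp also had an LPS-up peak of 3.10 that overlapped a Mel+LPS-up peak of 8.30.

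Marco, a scavenger receptor of macrophages, had LPS-up exon sites of 20.4 and 4.94. Slc11a1, a metal transporter of the phagosome, had a 3′UTR site of 12.4. The sialic acid receptors Siglece and Siglecf had sites of 11.8 and 10.1. Cxcl13, the chemokine that draws B cells, had a site of 18.3 in the set, while its 3′UTR peak of 53.7 was left out beside a Mel+LPS-down score of 1.59. Mme, the membrane metalloendopeptidase neprilysin, had 8 LPS-up peaks on exons. Of these, 6 were in the set, with scores from 6.04 to 16.0.

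Further LPS-up sites with high scores were those of Gm5150 (28.2), intergenic peaks assigned to Zfp42 (27.0) and Gm14322 (20.5), the 3′UTR of the polarity gene Pard3b (19.7) and an exon of Aff1 in a peak assigned to Gm42139 (19.7). The highest score among all LPS-up sites of the set was well below that among LPS-down sites (62.8 against 221.6).

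**Figure D2:**
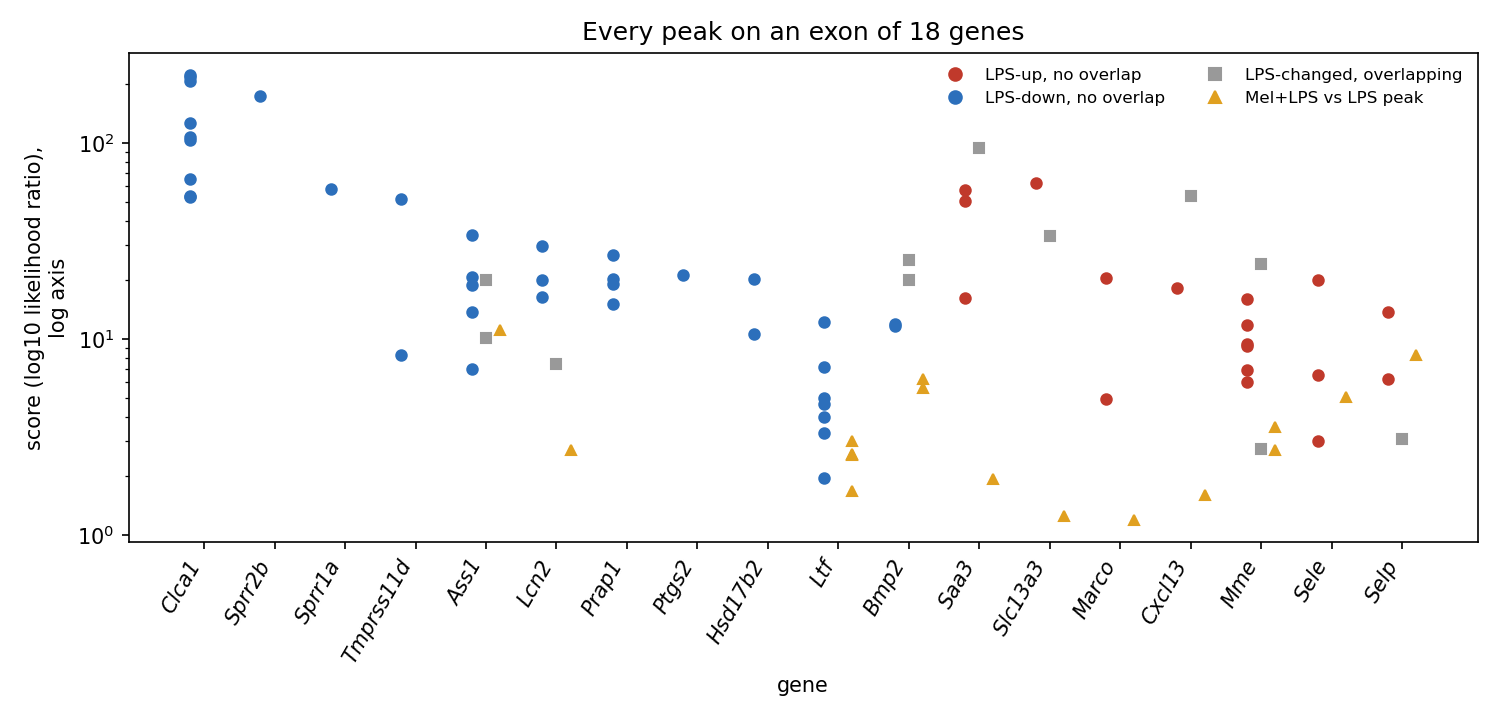
Score of every peak on an exon of 18 genes named in the text, on a log axis. Circles are LPS-changed peaks in the set (red up, blue down), gray squares LPS-changed peaks that overlapped a Mel+LPS vs LPS peak, and triangles the Mel+LPS vs LPS peaks. Clca1 has 9 circles from 53.1 to 221.6 and no triangle, while Saa3 and Cxcl13 each have a gray square above their circles.

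Over the whole set the score, which belongs to the contrast that chose the sites and is given as a description, differed by direction. LPS-up sites in the set had a median score of 2.39, and LPS-up peaks left out 3.78. LPS-down sites in the set had a median of 3.34, and those left out 2.09. Among LPS-up peaks with scores of at least 3, 6, 10 and 20, the share in the set was 50.3%, 47.4%, 39.0% and 26.7%. For LPS-down peaks it was 78.9%, 72.2%, 67.9% and 67.2%. Of the 100 highest LPS-up scores 29 were in the set, and of the 100 highest LPS-down scores 64. Over all scores the shares were 59.5% for LPS-up and 69.0% for LPS-down peaks. LPS-up peaks with high scores were thus less often in the set than LPS-up peaks in general. For LPS-down peaks with scores of at least 10 or 20 the share was near that of all LPS-down peaks.

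Part of the scores took repeated values. Of the LPS-down sites in the set 20.2% had a score that at least 10 peaks shared, and 714 of them had the value 3.63. Among LPS-down peaks left out the share was 2.11%. For LPS-up it was 15.1% in the set and 16.5% outside. The value 3.63 was held by only 20 LPS-down peaks left out. It lies just above the cut of 3, so the LPS-down share of 78.9% at that cut includes these ties. These repeated scores were found in 37.9% of distal intergenic and 35.5% of later-intron LPS-down sites, but in 5.65% of 3′UTR sites. Their part in the difference between the medians was not tested. The commonest LPS-up value, 3.78, was held by 435 sites in the set and 335 peaks left out. It is also the median of the LPS-up peaks left out. Among the gene scores given below, 3.63, 3.78, 5.95 and 6.19 recur on different genes.

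**Figure D3:**
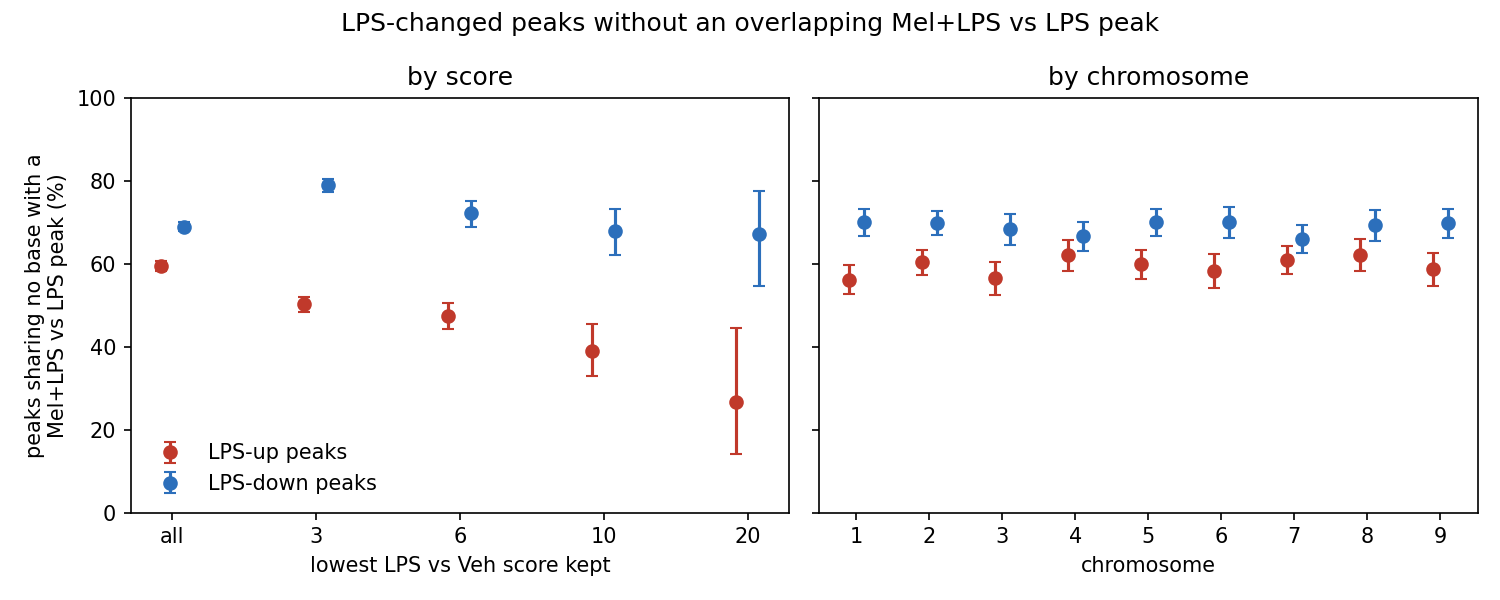
Share of LPS-changed peaks that shared no base with a Mel+LPS vs LPS peak, in percent, by the lowest score kept (left) and by chromosome (right), with 95% Wilson intervals. LPS-up peaks (red) go from 59.5% of all to 26.7% at scores of at least 20, LPS-down peaks (blue) from 69.0% to 67.2%, and on every chromosome the LPS-down share is the higher.

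The share varied little along the genome. For LPS-up peaks it lay between 56.2% on chromosome 1 and 62.1% on chromosomes 4 and 8, and for LPS-down peaks between 66% on chromosome 7 and 70.1% on chromosome 5. Outside chromosomes 1 to 9, where the LPS-down table is incomplete, 59.3% of 5263 LPS-up peaks met the same rule. The nearest Mel+LPS vs LPS peak was a median of 9508 bases away, 6322 for LPS-up and 12412 for LPS-down sites. Within 100 bases lay 342 sites (4.27%). Just inside the rule, with no base between them and a melatonin peak, were sites assigned to Gm4861 (down, 6.73), Sele (up, 6.55) and Apbb2 (up, 5.07). Just outside, with 1 shared base, were LPS-up peaks assigned to Gm33371 (3.78), Sirpb1c (3.76) and Gm39234 (3.73). Sites in the set were narrower than the peaks left out (median 167 against 194 bases for LPS-up, 164 against 183 for LPS-down), and a wider peak can more easily share a base.

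By the authors' feature classes, LPS-up and LPS-down sites departed from the peaks left out in opposite ways. Exons and UTRs held 67.8% of LPS-up sites in the set (66.3% to 69.3%) and 48.4% of LPS-up peaks left out (46.4% to 50.3%). For LPS-down the order was the other way, with 56.5% in the set (55.0% to 58.0%) and 79.5% outside it (77.7% to 81.3%). Internal exons made the largest part of both gaps. They held 27.8% of LPS-up sites in the set against 14.2% of those left out, and 22.2% of LPS-down sites in the set against 34.6%. The 3′UTR shares were closer, 21.8% against 19.9% for LPS-up and 20.5% against 25.1% for LPS-down. Distal intergenic sequence held 9.16% of LPS-up sites in the set and 19.9% of those left out, and 12.0% against 5.04% for LPS-down. Sites outside genes and in introns are also those with the repeated scores given above. The peaks left out must overlap a Mel+LPS vs LPS peak, and those peaks differed by direction too. Internal exons held 38.7% of Mel+LPS-up and 14.1% of Mel+LPS-down peaks on these chromosomes. Distal intergenic sequence held 4.13% and 17.0%. How far the overlap rule itself made the gaps between the set and the peaks left out was not tested.

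**Figure D4:**
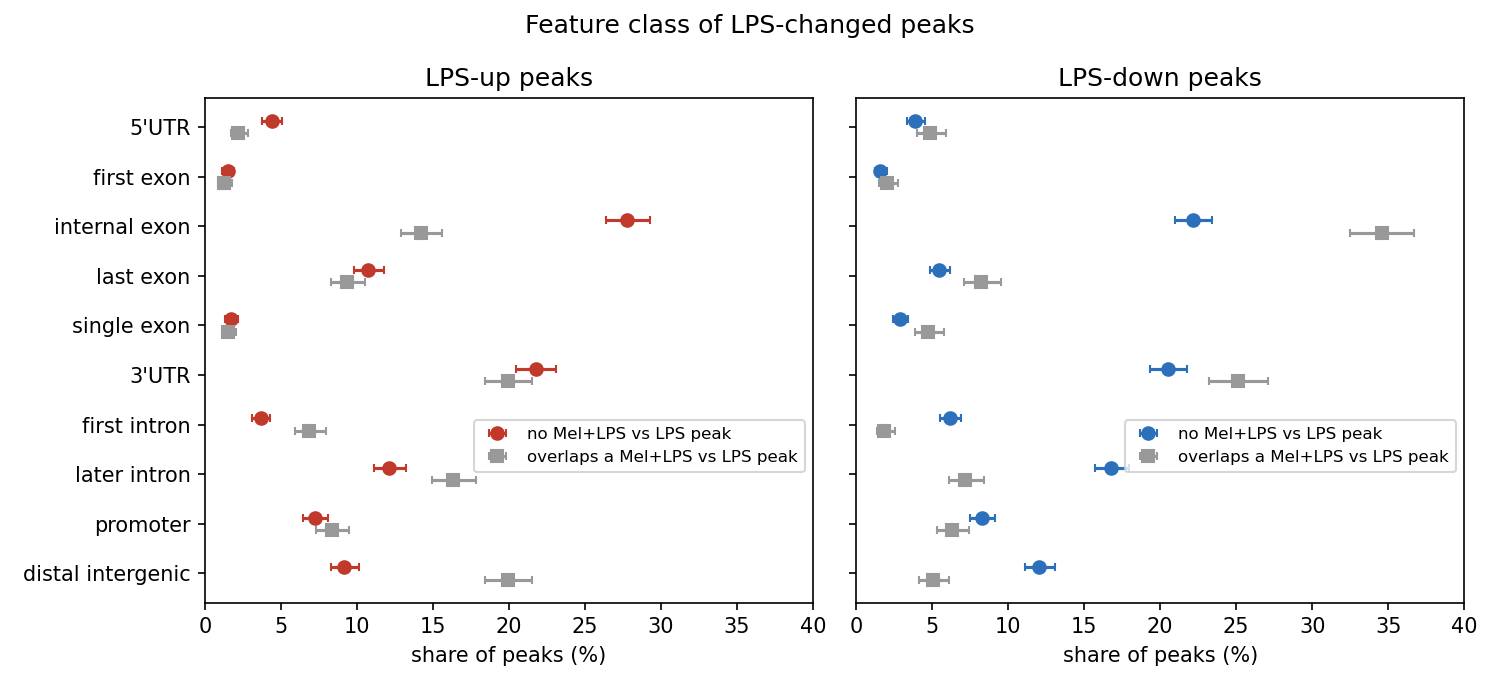
Share of peaks in each feature class, in percent with 95% Wilson intervals, for LPS-up (left) and LPS-down (right) peaks in the set (colored circles) and left out of it (gray squares). Internal exons hold 27.8% against 14.2% for LPS-up and 22.2% against 34.6% for LPS-down.

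On the GENCODE transcripts, 66% of LPS-up and 53.4% of LPS-down sites shared at least 1 base with an exon. Peaks called internal exon by the authors often reached past the exon on its 3′ side. The peak center lay beyond the 3′ edge in 69.4% of 918 LPS-down sites (66.3% to 72.3%) and before the 5′ edge in 2.07%. For 990 LPS-up sites these shares were 53.5% (50.4% to 56.6%) and 2.32%. The center lay past the 3′ edge in 59.7% of the LPS-down and 50% of the LPS-up internal-exon peaks left out. Of the bases of such a site, a median of 28.4% (LPS-down) and 41.9% (LPS-up) lay on the exon. How far a peak lies from the methylated base was not tested, and exon parts, stop-codon distances and counts by exon hold only for the positions as deposited. Several of the sites named above share few bases with an exon, among them those of Cxcl13 (9 bases), Marco (10 bases, score 20.4), Ass1 (11 bases, score 34.1) and Igfbp2 (17 bases).

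The sites carried somewhat more of the m6A motif than the sequence beside them. DRACH was counted on the RNA strand in the 1554 LPS-up and 1147 LPS-down sites that lie whole on exons. LPS-up sites had 25.1 DRACH per 1000 bases and their flanks 21.3, a ratio of 1.18 (Poisson interval 1.15 to 1.21). LPS-down sites had 23.7 against 20.8, a ratio of 1.14 (1.11 to 1.17). These intervals cover the motif count in the peaks only, with the flank rate taken as fixed. They are therefore too narrow for a ratio. The peaks left out had ratios of 1.19 and 1.18, with intervals that overlap those of the set. Sites moved 100 bases toward the 5′ end had ratios of 1.14 (LPS-up, 1.11 to 1.17) and 1.12 (LPS-down, 1.09 to 1.15). The excess was thus only slightly smaller there, though moved windows can still share bases with the site. For GGAC, which is part of DRACH wherever A, C or T follows it, the ratios in the set were 1.35 for LPS-up and 1.37 for LPS-down. At least 1 GGAC was present in 59.5% of LPS-up and 55.4% of LPS-down sites, against 64.1% and 64.9% of the wider peaks left out. The highest-scoring sites did not all hold one. The exon part of the Sprr2b site, 108 bases with a score of 174.4, had no DRACH on the transcript used.

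Of sites centered on exons of coding transcripts, 23.3% of 1639 LPS-up (21.3% to 25.4%) and 23.0% of 1320 LPS-down (20.8% to 25.3%) lay within 200 bases of the stop codon. The peaks left out had 22.7% and 24.0%, within those intervals. The median LPS-up site lay 223 bases before the stop codon and the median LPS-down site 107 bases after it. The medians of the peaks left out lay on the other sides, 18 bases after it for LPS-up and 103 bases before it for LPS-down.

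The authors assigned the sites to 5417 genes. Of the 9122 genes with any peak on chromosomes 1 to 9, 30.5% had an LPS-up site of the set and 37.7% an LPS-down site, and 803 genes had both. A Mel+LPS vs LPS peak lay elsewhere on 3124 of the 5417 genes (57.7%), and the other 2293 genes had none. The assignment takes the nearest transcription start, and 49.4% of LPS-up and 49.5% of LPS-down sites with exon bases were assigned to the gene of that exon. Genes were therefore also counted by exon. Of the 6016 genes with an exon under any peak, 30.5% had an LPS-up site of the set and 31.5% an LPS-down site. Gene groups below are read against these last shares.

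Few genes held many sites. By exon, 11 genes had at least 5 LPS-up sites and 6 at least 5 LPS-down sites. After Clca1 and Ltf, the LPS-down genes were Cenpe (6), which encodes a kinetochore motor, Ass1, the noncoding Kcnq1ot1 and Gtf2e2 (5 each). The LPS-up genes were led by Rlf, a zinc finger gene, with 7 sites of 1.52 to 3.45 that were assigned to Gm12882. Mme and Kcnq1ot1 followed with 6 each, and Setd2, Kat6a, C1s1, Resf1, Zfp292, Tmem131, Plekha5 and Frmd4b with 5 each. Setd2 and Kat6a encode a histone methyltransferase and a histone acetyltransferase, and C1s1 a complement protease. Other than Mme, the scores of these LPS-up genes were low, with medians from 1.46 for Plekha5 to 3.78 for Kcnq1ot1. By the authors' assignment the leaders were Gm4724 (8 LPS-up), Frmd4b (7), Lyrm2 (6) and Zap70 (6, of which 5 lie on exons of Tmem131), and, after Clca1, Synpo2 (8 LPS-down), Scaper (7) and Znhit6, Cwc22 and Suv39h2 (6 each). Synpo2, a smooth muscle actin-binding protein gene, also had 5 LPS-up sites.

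Of 28 epithelial secretion and acute-phase genes with an exon peak, 16 had an LPS-down site of the set (57.1%, 39.1% to 73.5%, all genes 31.5%) and 3 an LPS-up site (10.7%, all genes 30.5%). The median of their highest scores was 9.45, against 2.28 over all genes. LPS-down besides Clca1, Lcn2, Ltf and the Sprr genes were Ceacam1, an adhesion molecule, with 4 sites of 1.52 to 7.18, the fibrinogen gene Fgg with 3 (3.75 to 7.10), the mucin genes Muc1 (3.33) and Muc5b (3.63), and Pigr, the transporter of secretory antibodies, with 3 (1.18 to 2.58). The 3 LPS-up genes were the acute-phase genes Saa3, Cp (4 sites, 1.77 to 9.45) and Hp (3.68).

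Of 22 leukocyte and antigen presentation genes, 14 had an LPS-up site on an exon (63.6%, 43.0% to 80.3%) and 4 an LPS-down site (18.2%, 7.31% to 38.5%). LPS-up were the integrin alpha subunit genes Itgal (6.44), Itgam (3.05) and Itgax (2.37), which mark leukocytes, Slamf7 (6.56 and 3.26), Plcg2 (5.14), the chemokine receptor Cx3cr1 (3.88 and 2.62), Ptprc, which encodes CD45 (3.56 and 1.93), and the myeloid transcription factor Spi1 (2.67). LPS-down were Cd163 (8.40), a hemoglobin scavenger receptor of macrophages, Ccr2 (2.87), Fcgr2b (2.30) and Cd8b1 (2.11), which also had an LPS-up site of 3.05. By the authors' assignment the balance was not seen, with 6 LPS-up and 7 LPS-down of 16 genes. Cd8a, for example, is listed with an LPS-down score of 10.6 that lies on an exon of Rmnd5a.

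TLR and NF-kB genes had an LPS-up site in 13 of 28 genes by exon (46.4%, 29.5% to 64.2%) and an LPS-down site in 6. The receptors were mixed. Tlr1 had LPS-up sites of 6.02 and 2.10, Tlr6 an LPS-down coding site of 9.94 and an LPS-up 3′UTR site of 7.52, and Tlr3 a down site of 1.75 and an up site of 1.23. Tlr4, the LPS receptor, had an LPS-up coding site of 2.20 and an LPS-down 3′UTR site of 1.27, with a Mel+LPS-up peak of 1.58 between them. Downstream, the kinase gene Ikbkb had LPS-up sites of 4.16, 2.88 and 1.37 and a down site of 2.0, Nfkb1 had LPS-up sites of 1.65 and 1.18, Traf6 one of 1.55 and the inhibitor gene Tnip3 one of 4.06.

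Among 32 cytokine, chemokine and receptor genes, 12 had an LPS-up and 8 an LPS-down site by exon, shares of 37.5% (22.9% to 54.7%) and 25% (13.3% to 42.1%). Receptors with LPS-up sites were Il18r1 (8.36 and 7.75, the first assigned to Il18rap), Ackr1 (4.0), Csf3r (3.02) and Cxcr2 (2.78). Il1r1 (8.24) and Ccr1 (7.83) had LPS-down sites, as did the membrane-bound chemokine gene Cx3cl1 (5.11).

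Of 37 interferon response genes, 18 had an LPS-up site (48.6%, 33.4% to 64.1%) and 12 an LPS-down site (32.4%, 19.6% to 48.5%). By the exon under the peak center, 3 of 29 genes had an LPS-down site (10.3%, all genes 26.6%) and 12 an LPS-up site (41.4%, all genes 29.2%). The guanylate-binding protein genes Gbp2, Gbp3, Gbp4, Gbp5, Gbp7, Gbp8 and Gbp9 each had LPS-up sites on exons and no LPS-down one, with highest scores from 1.57 for Gbp2 to 4.2 for Gbp9. These genes lie in clusters of similar copies, so the division of reads is uncertain. Nlrc5, the activator of MHC class I genes, had 3 LPS-up sites up to 6.19. Among genes with LPS-down sites, Oasl1 had 4 from 3.35 to 13.6, the RNA sensor gene Ifih1 sites of 5.57 and 3.63, Oas2 one of 6.61, Zbp1 one of 6.65, and Sp140 one of 11.5 in a peak assigned to Sp110.

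**Figure D5:**
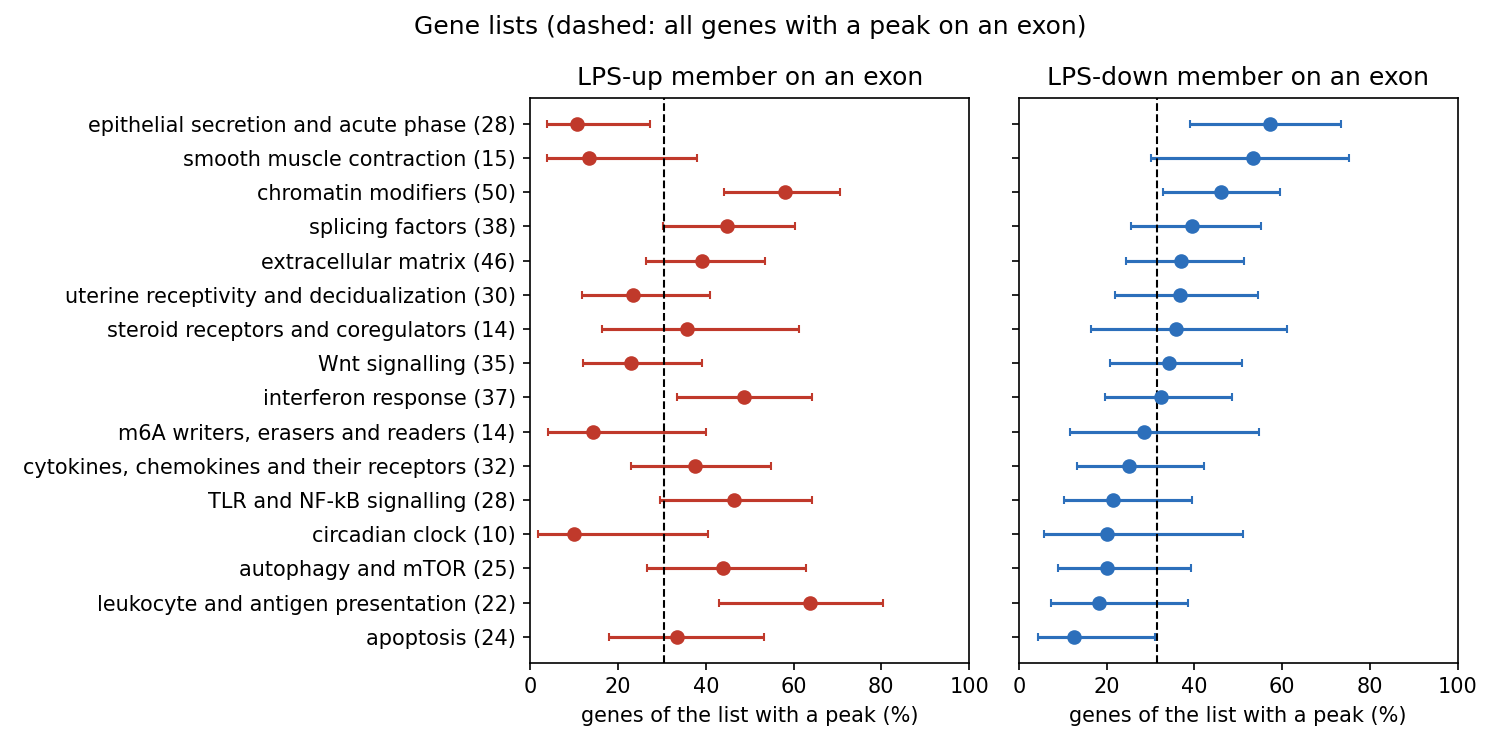
Share of the genes of each list that had an LPS-up (left) or LPS-down (right) site of the set on an exon, in percent of the listed genes with an exon peak (number in parentheses), with 95% Wilson intervals. Dashed lines are the shares over all genes, 30.5% and 31.5%. Epithelial secretion lies at 10.7% up and 57.1% down, and leukocyte genes at 63.6% up and 18.2% down.

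For uterine receptivity and decidualization genes the result turned on how genes were named. By assignment, 17 of 27 had an LPS-down site (63.0%, all genes 37.7%) and 4 an LPS-up site (14.8%, all genes 30.5%). By exon, 11 of 30 had an LPS-down site (36.7%, 21.9% to 54.5%) and 7 an LPS-up site. Ptgs2, Lcn2, Ltf and Bmp2, given above, had the highest LPS-down scores, and Muc1, Lcn2 and Ltf belong to the epithelial list too. Klf4 (2.18 and 1.97), Cebpb (2.05), Wnt6 (1.95 and 1.34) and Hand2 (1.77), transcription factor and ligand genes of epithelium and stroma, had low LPS-down scores. LPS-up were Foxa2, the transcription factor gene of uterine glands (7.51 and 2.73), Bmpr2 (6.15 and 1.42) and the hedgehog effector Gli2 with 4 sites of 1.16 to 1.37. Smooth muscle contraction genes had an LPS-down site in 12 of 17 by assignment (70.6%) and 8 of 15 by exon (53.3%, 30.1% to 75.2%). The exon sites of Actg2 (2.82), Tagln (2.60), Cacna1c (1.81), Csrp1 (1.34), Des (1.29) and Tpm1 (1.12), which encode contractile proteins and a calcium channel, all scored below 3. At scores of at least 3, LPS-down genes were 1 of 15 by exon (6.67%, all genes 12.0%). By assignment they were 7 of 17 (41.2%, all genes 21.1%). Sites assigned to Itga8 (6.89), Lmod1 (5.93) and Oxtr (5.02) were among these and lay on a noncoding exon, in an intron and in a promoter.

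By exon, chromatin modifier genes were often in the set in both directions, for LPS-down mostly at low scores. Of 50, 29 had an LPS-up site by exon (58.0%, 44.2% to 70.6%), 23 an LPS-down site (46.0%, 33.0% to 59.6%) and 11 both. At scores of at least 3, 12 had an LPS-up site (24.0%, all genes 10.5%) and 7 an LPS-down site (14.0%, 6.95% to 26.2%, all genes 12.0%). By assignment, 18 of 37 had an LPS-up site (48.6%, all genes 30.5%). An LPS-down site was assigned to 17 (45.9%, 31.0% to 61.6%, all genes 37.7%). Ash1l, a histone methyltransferase gene, had LPS-down sites of 7.66 and 5.37 and LPS-up sites up to 4.78. Kdm5a, a histone demethylase gene, had an LPS-up site of 10.2, Chd7 sites of 6.19 (up) and 5.95 (down), and Tet2 3 LPS-up sites up to 3.78. Exon length was not compared between the lists. Splicing factor genes had LPS-up sites in 17 and LPS-down sites in 15 of 38. At scores of at least 3 they were 1 and 2 genes (2.6% and 5.3%, all genes 10.5% and 12.0%). Srpk2 led with an LPS-down site of 5.95 that shared 1 base with its exon.

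Of the remaining lists, the apoptosis list had an LPS-down site by exon in 3 of 24 genes (12.5%, 4.34% to 31.0%, all genes 31.5%) and an LPS-up site in 8 (33.3%). Their highest scores, assigned to Casp12 (12.2) and Casp8 (11.3), lay in introns, the first in an intron of Casp4 and not of Casp12. By assignment 7 of 27 apoptosis genes had an LPS-down site (25.9%, all genes 37.7%). Extracellular matrix genes had 18 LPS-up and 17 LPS-down of 46 by exon, with LPS-down sites of 13.5 on Mmp7, a matrix-degrading protease of epithelium, and 10.2 on Fmod, which binds collagen. Autophagy and mTOR genes had 11 and 5 of 25. Wnt genes had 8 and 12 of 35, with Wnt2 LPS-down at 8.15. Steroid receptor and coregulator genes had 5 and 5 of 14, with an LPS-down site of 7.80 assigned to the progesterone receptor gene Pgr that lay outside the gene. Circadian clock genes had 1 and 2 of 10. The m6A writers, erasers and readers had 2 and 4 of 14 by exon and 3 and 3 of 17 by assignment, of which 1 by exon and 0 by assignment had a score of at least 3. That site, of 9.49, lay in the 3′UTR of Zcchc4, a methyltransferase gene, and was assigned to Anapc4. The others scored up to 2.43 (Mettl5, LPS-down, by assignment). Over all genes, 10.5% (LPS-up) and 12.0% (LPS-down) by exon had a site with a score of at least 3. By assignment these shares were 14.6% and 21.1%.

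Genes of inflammation, autophagy, apoptosis and m6A that were followed by qPCR in this uterus were looked up too. Exon sites of the set were found for Tlr4, given above, and Bcl2. Bcl2, the inhibitor of apoptosis, had an LPS-up 3′UTR site of 2.49 that was assigned to Mir3473f. A site assigned to Bcl2 (LPS-up, 1.62) lay in the 3′UTR of Kdsr, and one assigned to the m6A writer Mettl14 (LPS-down, 1.51) in an intron of Sec24d. No site of the set was found for the others looked up, several of which lie on chromosomes that the rule leaves out. Mettl16, Ythdf1 and Ythdf2, for which the study also lists mouse primers, were not part of this look-up.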

How the data were processed

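Reads were trimmed with Fastp, aligned with STAR 2.5.2a and peaks called with exomePeak2 by the authors, who compared treatments with MACS2 (3.4 in the submitters' processing notes) and annotated peaks with ChIPseeker 1.22.1. How replicates were combined is not given in the sources used here. The deposited score is the log10 likelihood ratio of the authors' MACS2 comparison, 1 per peak and comparison. Their LPS-down table ends inside chromosome 10, within 1 incomplete line, so chromosomes 1 to 9 were used.

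Overlap meant at least 1 shared base on the same chromosome. Peaks were placed on 34481 GENCODE transcripts (release 21, GRCm38), 1 per gene. Overlap and motif counts were tested on simulated data. No test was run, since peaks are not replicates.

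The sites and the 16 gene lists (1077 genes, written by hand) were chosen with earlier results of these data known. Named were the 10 assigned genes with the highest scores and the 5 with most sites per direction, up to 4 genes per list, the qPCR genes, and sites at the edge of the rule. Genes named from exon counts were chosen after their values were seen, as was the count by the exon with most shared bases. Some genes under this rule are not reported here. Tables were handled with pandas 2.3.3 and numpy 2.4.6 in Python 3.11.15, intervals computed with scipy 1.17.1 and figures drawn with matplotlib 3.10.9.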

Additional observations from a re-analysis of the deposited data

How the results depend on the processing

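The LPS-up share of 59.5% became 55.8% and 48.1% when gaps of up to 100 and 500 bases counted as overlap, 61.7% when 50% of the shorter peak had to be shared, 61.7% when only opposite Mel+LPS vs LPS peaks counted, 50.3% at LPS vs Veh scores of at least 3 and 77.8% when Mel+LPS vs LPS peaks needed a score of at least 3. The LPS-down share of 69.0% became 67.1%, 61.5%, 70.7%, 78.9% and 88.2% under the same settings, the opposite-only one aside, which moved it less than its interval. The 2 shares thus depend on the scores that the authors' tables keep. At site scores of at least 3, the 3′UTR share fell to 13% (up) and 12.2% (down), internal exons to 23.4% and 16.6%, distal intergenic sequence rose to 16.3% and 17.9%, the LPS-down width was 167 bases, the genes were 1336 and 1927 and the listed genes, summed over lists, 67 and 90 in place of 142 and 164. By peak centers on GENCODE transcripts the 3′UTR share was 17.6% and 17.9%. With 1 site per gene, LPS-down internal exons were 20.8%. GGAC in place of DRACH gave ratios of 1.35 and 1.37, and peaks moved 100 bases toward the 5′ end a DRACH ratio of 1.14 for LPS-up. Genes numbered 1402 and 1278, and listed LPS-down genes 109, by the exon under the peak center. Among the lists, that count moved LPS-down interferon genes from 12 of 37 to 3 of 29, LPS-down apoptosis genes from 3 of 24 to 1 of 18, LPS-down epithelial genes from 16 of 28 to 14 of 24 and LPS-up leukocyte genes from 14 of 22 to 10 of 19. By the exon with most shared bases, chosen after seeing the data, genes numbered 1837 and 1894. The cause of these moves was not tested. No paired analysis was possible because the tables hold no value per library. Read depth is unknown and limits every score.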
